A study of Mus musculus with 3 samples.

Results

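Laminins, nidogens, perlecan and agrin make up the non-collagen framework of the basement membrane, and 10 of the 31053 genes measured in every library were followed here: the laminin alpha chains Lama2, Lama4 and Lama5, the beta chains Lamb1 and Lamb2, the gamma chain Lamc1, the nidogens Nid1 and Nid2, and the heparan sulfate proteoglycans Hspg2 (perlecan) and Agrn (agrin). They were taken by symbol, with earlier results of these data already known. A laminin is a trimer of an alpha, a beta and a gamma chain secreted by the cells that rest on the membrane. The alpha chain carries the sites that integrins, dystroglycan and Bcam bind, so the alpha chain made decides which receptors can hold the cell. Nidogens and perlecan bridge the laminin sheet to collagen IV, and agrin is best known for gathering receptors at the nerve-muscle junction. In vessels, laminins with the alpha 4 and alpha 5 chains come from endothelium, and the balance between them differs along the vascular tree. The alpha 2 chain is the laminin of muscle and nerve sheaths and of other non-endothelial cells.

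The libraries were 10x Chromium 3′ single-cell profiles of cells sorted as blood endothelial cells (EC) from the Peyer's patches (PP, the lymphoid follicles of the small intestine) of mice aged 6 to 10 weeks. The WT group was 1 library from C57BL/6 mice. The COUPOE group was 2 libraries from CDH5(PAC)CreERT2;COUP-TFIIOE/OE mice (EC-iCOUPOE), in which tamoxifen switches on COUP-TFII, the nuclear receptor of venous identity encoded by Nr2f2, through a Cre that the endothelial Cdh5 promoter drives. Cells were taken 14 to 19 days after tamoxifen, and male and female cohorts were handled together. The labels do not say whether the mice of the WT library were given tamoxifen or how many mice entered a library, so the spread between the 2 COUPOE libraries may be partly technical. With 1 control library no test between genotypes could be made, and none was made between cell classes, since cells are not replicates.

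The WT, COUPOE replicate 1 and COUPOE replicate 2 libraries held 6080, 4959 and 1441 barcodes and 17341398, 17417260 and 3548983 unique molecules (UMIs). COUPOE replicate 2 was the shallowest in total. Arterial, capillary, venous, high and lymphatic endothelium, pericytes, fibroblasts and glia were named from clusters by marker genes. Markers of capillary resident progenitors, which the paper names apart from capillaries, counted here toward the capillary class. Every class detected all or nearly all of its own markers, but the same lists gave the names, so this is no independent check. Detection in a class sum also does not separate classes, since pericytes and fibroblasts detected 7 of 7 blood endothelial markers. The sort label did not hold for all cells. The WT library carried 1916 fibroblasts, 195 glial cells and no lymphatic endothelium, whereas the COUPOE libraries carried 916 and 127 lymphatic cells, 6 and 4 fibroblasts, and 2 and 5 glial cells. High endothelium numbered 368, 80 and 3 cells, so it was described in WT and COUPOE replicate 1 only. Of the 3 venous clusters, cluster 5 (112, 481 and 26 cells) carried all 6 venous markers, but none of them was among its 10 leading genes, which included the lymphatic marker Lyve1. The venous results are therefore also given without it, a choice made after seeing the data. Venous cluster 7 (457 cells in all) and arterial cluster 10 (285 cells in all) likewise had none of their class markers among their 10 leading genes. Both were kept, and no result is given without them. Arterial values therefore pool cluster 10, led by Bmp2 and Col8a1, with cluster 9 (345 cells in all), led by Kcne3 and Mgp. WT and COUPOE replicate 2 shared 12 cell barcodes, and no other pair shared any. Nr2f2 itself went with the genotype labels in blood endothelium, at 117 CPM (UMI counts scaled to a common class total) in WT against 1697 and 1165 CPM.

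Values are UMIs summed over the cells of a class in a library and scaled to CPM by the UMI total of that class. A 3′ library gives about 1 tag per molecule, so levels of different genes were compared without dividing by length. Intervals are exact 95% Poisson intervals, or exact Clopper-Pearson intervals for shares, and cover counting error only. Mean log2 ratios are given ± SD over libraries. Where a class ratio takes in both WT and COUPOE libraries, that SD mixes genotypes and is not a spread between replicates. A gene was counted as higher or lower in a comparison when its CPM differed at least 2-fold in the same direction in every library that had at least 10 cells on both sides, provided it had at least 50 UMIs in a class of some library. The share of all tested genes meeting the same rule is given as the background.

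The alpha and beta chains were the members that exchanged between cell classes, so the start sites of 4 of them are shown for orientation, from 250 bases before to 50 bases after the RefSeq start (build GRCm38.p6, 5′ to 3′ on the gene's strand). Capitals mark the NKX homeodomain core AAGTG or its reverse complement CACTT, since NKX2-3 is the intestinal partner of COUP-TFII. The windows are chr12:31265043-31265342 (plus strand) for Lamb1, chr9:108479612-108479911 (plus strand) for Lamb2, chr2:180225810-180226109 (minus strand) for Lama5 and chr10:27616893-27617192 (minus strand) for Lama2.
Lamb1: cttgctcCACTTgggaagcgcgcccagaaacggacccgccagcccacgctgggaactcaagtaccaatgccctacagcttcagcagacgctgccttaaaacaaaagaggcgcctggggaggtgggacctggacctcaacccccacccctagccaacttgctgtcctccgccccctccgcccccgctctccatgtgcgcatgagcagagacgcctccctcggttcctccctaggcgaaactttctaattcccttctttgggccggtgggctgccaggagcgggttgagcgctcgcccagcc
Lamb2: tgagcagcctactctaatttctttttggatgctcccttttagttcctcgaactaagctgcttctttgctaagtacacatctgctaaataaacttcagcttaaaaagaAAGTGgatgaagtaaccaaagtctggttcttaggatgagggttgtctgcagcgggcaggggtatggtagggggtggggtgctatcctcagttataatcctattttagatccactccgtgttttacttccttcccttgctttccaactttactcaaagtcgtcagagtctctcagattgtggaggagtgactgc
Lama5: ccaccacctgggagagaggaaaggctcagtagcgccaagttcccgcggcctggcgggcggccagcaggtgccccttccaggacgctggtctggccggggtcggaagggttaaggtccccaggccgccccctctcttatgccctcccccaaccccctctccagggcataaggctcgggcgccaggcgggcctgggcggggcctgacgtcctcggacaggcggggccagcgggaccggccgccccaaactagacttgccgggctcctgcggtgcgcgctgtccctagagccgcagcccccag
Lama2: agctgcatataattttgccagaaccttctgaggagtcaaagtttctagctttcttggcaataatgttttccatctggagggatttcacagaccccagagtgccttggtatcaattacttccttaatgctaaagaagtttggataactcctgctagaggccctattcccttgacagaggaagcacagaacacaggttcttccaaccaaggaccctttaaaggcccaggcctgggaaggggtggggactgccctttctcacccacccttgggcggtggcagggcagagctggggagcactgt
Of the members, 7 had a start in the RefSeq table, with 8 starts in all; Lama4, Lamc1 and Nid2 had none there. The core was present in 3 of these 8 windows, against 46.4% of 32851 promoters of the same length. The full COUP-TFII half-site AGGTCA or TGACCT was in 0 of the 8, against 16.3% of all promoters. Its shorter core, GGTCA or GGTCG on either strand, was in 3 (Agrn, Hspg2 and Lama5), against 53.0% of all promoters, and is not capitalised above. A match describes letters only, and these windows say nothing of distal elements.

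Among arterial, capillary, venous and high endothelium, capillaries had the highest level of 5 members in every library: Lama4, Lamb1, Nid1, Nid2 and Hspg2. Perlecan was the most abundant of them. In capillaries Hspg2 stood at 313 CPM in WT and at 291 and 271 CPM in COUPOE replicates 1 and 2. These capillary values lay above those of every other member in these 4 classes. Hspg2 did not lead within every class: in arterial cells of COUPOE replicate 1, Lamb2 had 192 CPM and Hspg2 145 CPM. All 10 members together came to 836, 886 and 800 CPM in capillaries, 533, 618 and 702 CPM in arterial endothelium, and 433, 630 and 475 CPM in venous endothelium. In high endothelium, the cuboidal venule lining through which lymphocytes enter, they came to 283 CPM in WT and 618 CPM in COUPOE replicate 1. After every cell was thinned to 1000 UMIs, 52.8%, 54.6% and 51.8% of capillary cells carried a UMI of a member, against 23.9% and 38.8% of high endothelial cells. Unthinned, the order was the reverse, at 68.9%, 81.7% and 74.2% against 78.3% and 95%, with medians of 7532.5 and 6941.5 UMIs per high endothelial cell and 1495 to 2283.5 UMIs per capillary cell. Lymphocytes served as the measure of free RNA: after thinning, 0 of 17 cells in WT and 0 of 23 in COUPOE replicate 1 carried a member UMI, which allows shares of up to 17.6% and 13.0% by the limit of 3 counts used here for any count of 0. Unthinned, 4.35% of the COUPOE replicate 1 lymphocytes carried a member UMI, of Lamc1. Lymphocytes with at least as many UMIs of another class's markers as of their own, myeloid markers apart, had been left out before. They numbered 2 in WT and 7 in COUPOE replicate 1, so this measure of free RNA may be too low. The class named lymphocytes was a mix of leukocytes. Its myeloid markers summed to 426 to 4173 CPM over these libraries, against 1886 to 5326 CPM for its lymphocyte markers.

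**Figure D1:**
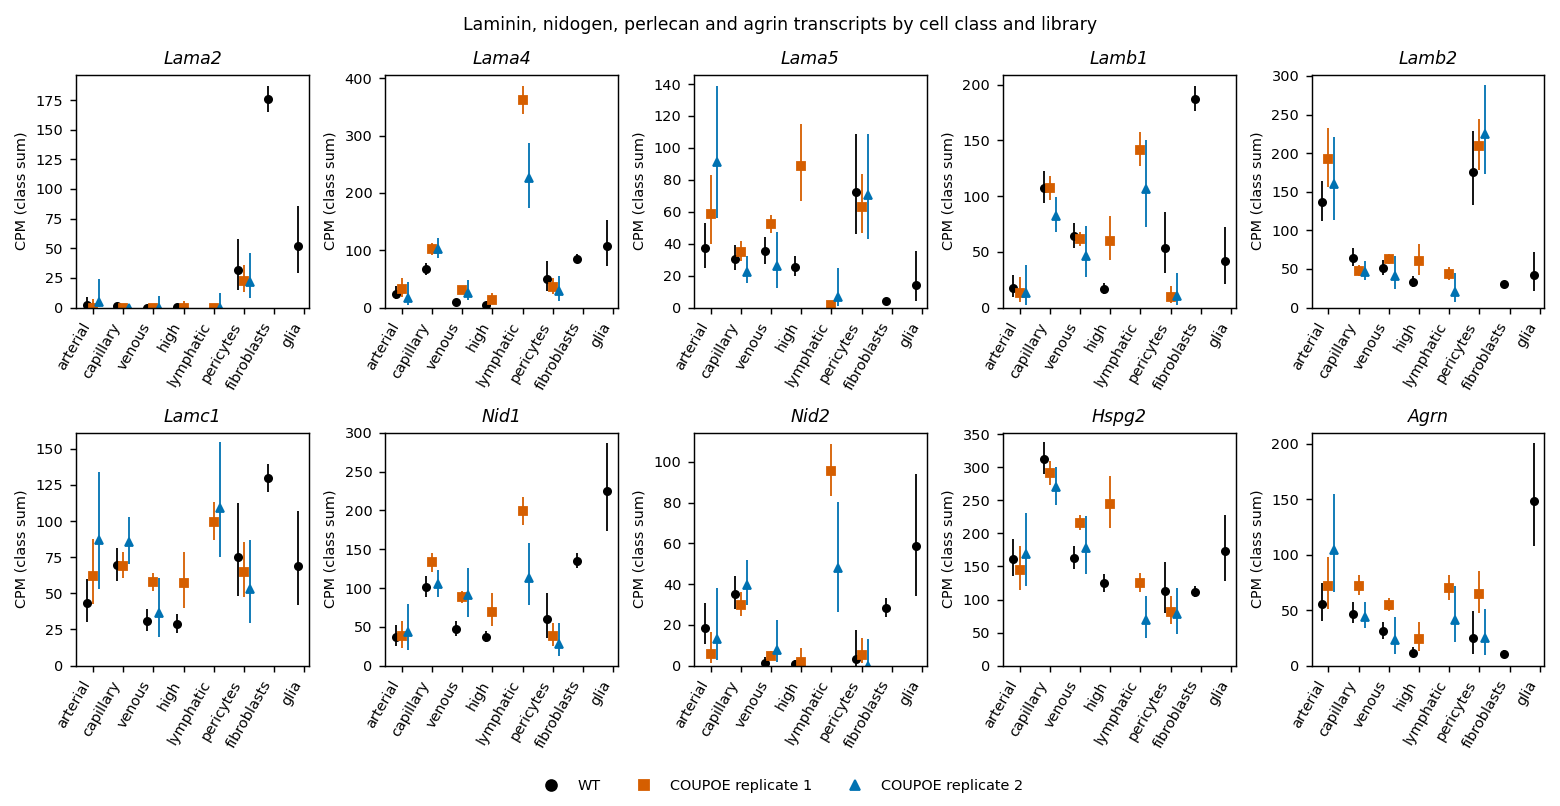
Level of each member in each cell class (CPM, 1 panel per gene, each with its own axis from 0); each point is a library and each bar its exact 95% Poisson interval. Among the classes shown, Lama4 and Nid2 are highest in lymphatic cells (COUPOE libraries only), Hspg2 in capillary cells, Lamb2 in pericytes and arterial cells, and Lama2 in fibroblasts (WT only).

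The laminin alpha 4 chain, Lama4 (ENSMUSG00000019846, chr10:38965515-39110188, plus strand, GRCm38), was the member that separated capillary endothelium most evenly from its neighbours. Its level was 66.6 CPM in WT capillaries and 102 and 103 CPM in the COUPOE replicates. Arterial endothelium held 23.5, 32.0 and 17.3 CPM, and venous endothelium 9.63, 30.5 and 25.8 CPM. The capillary values lay above all arterial and venous values, without overlap. High endothelium was lowest, with 5.11 CPM in WT and 12.6 CPM in COUPOE replicate 1. The log2 ratio of arterial to capillary Lama4 was −1.91 ± 0.57 (SD, n = 3 libraries), and that of venous to capillary was −2.17 ± 0.55. In every COUPOE library, where lymphatic cells were present, they exceeded capillaries with intervals apart.

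The laminin alpha 5 chain, Lama5 (ENSMUSG00000015647, chr2:180176373-180225859, minus strand), did not follow Lama4. It stood at 37.1, 58.4 and 90.9 CPM in arterial, 30.5, 34.9 and 22.5 CPM in capillary, and 35.2, 52.1 and 25.8 CPM in venous endothelium. These ranges overlapped, and neither arterial nor venous cells differed from capillaries by 2-fold in every library. High endothelium had 25.5 CPM in WT and 88.5 CPM in COUPOE replicate 1. Only these 2 libraries had enough of these cells, and they differ in genotype, so genotype and library cannot be told apart.

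As shares of all alpha chain UMIs (Lama1 to Lama5), Lama4 made up 53.6% of the capillary total in WT, with an interval from 47.4% to 59.7%, and 66.6% and 71.4% in the COUPOE replicates. Lama5 was the main alpha chain of high endothelium, at 77.8% in WT and 86.2% in COUPOE replicate 1. In venous endothelium Lama5 had 70.9%, 59% and 40% of the alpha chain UMIs, and the last value rests on only 25 UMIs. Arterial cells divided theirs among 3 chains: the epithelial-type chain Lama3, which is no member, reached 40% in WT, 34.2% in COUPOE replicate 1 and 7.14% of 28 UMIs in COUPOE replicate 2. Lama2 never exceeded 3.57% of alpha chain UMIs in any of these endothelial classes. Its levels there were 0 to 4.33 CPM.

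**Figure D2:**
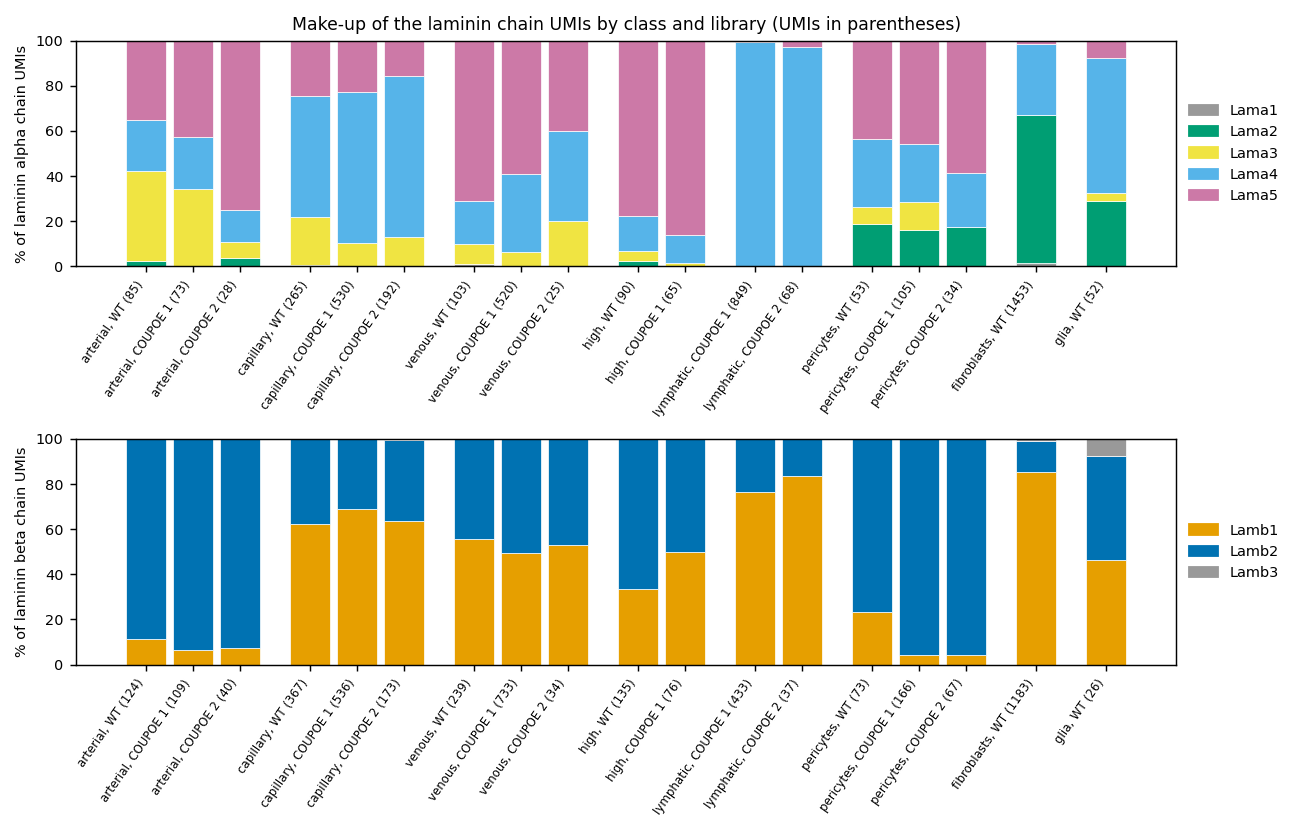
Share of alpha chain UMIs (upper panel) and of beta chain UMIs (lower panel) taken by each laminin chain, in percent, for each class and library, with the UMIs behind each bar in parentheses. Lama4 takes nearly the whole alpha bar in lymphatic cells (COUPOE libraries only), Lama2 leads in fibroblasts (WT only), and Lamb2 fills most of the beta bar in arterial cells and pericytes.

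The beta chains divided the vascular tree along another line. Lamb1 (ENSMUSG00000002900, chr12:31265234-31329644, plus strand), the beta chain of most tissues, stood at 107, 107 and 82.5 CPM in capillaries and at 64.1, 61.4 and 46.5 CPM in venous cells, but at 17.3, 13.2 and 13.0 CPM in arterial cells. Lamb2 (ENSMUSG00000052911, chr9:108479736-108490530, plus strand), the beta chain of arterial smooth muscle and of synaptic and glomerular membranes, had 136, 192 and 160 CPM in arterial endothelium. It was at 64.7, 47.6 and 46.5 CPM in capillaries and 51.1, 62.9 and 41.3 CPM in venous cells. Neither gene's arterial and capillary values overlapped. The log2 ratio of arterial to capillary was −2.77 ± 0.21 (SD, n = 3) for Lamb1 and 1.62 ± 0.49 for Lamb2. Lamb2 therefore held 88.7%, 93.6% and 92.5% of the beta chain UMIs in arterial endothelium, against 37.6%, 30.8% and 35.8% in capillaries and 44.4%, 50.6% and 47.1% in venous cells. Arterial Lamb1 rests on few UMIs: unthinned, 3.16%, 3.78% and 3.37% of 348, 185 and 89 arterial cells carried one. The SD of its ratio does not measure that counting error.

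Lamc1 (ENSMUSG00000026478, chr1:153218922-153332786, minus strand), the gamma chain common to most laminins, varied less than the alpha and beta chains. Its level was 43.3, 62.2 and 86.6 CPM in arterial, 69.4, 69 and 85.5 CPM in capillary and 30.8, 57.8 and 36.2 CPM in venous endothelium. The arterial and capillary ranges overlapped.

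Among arterial, capillary, venous and high endothelium, both nidogens were highest in capillaries. Nid1 (ENSMUSG00000005397, chr13:13437551-13512269, plus strand) had 101, 133 and 105 CPM in capillaries against 37.1, 37.7 and 43.3 CPM in arterial cells, with no overlap and a log2 ratio of −1.52 ± 0.28. Venous cells lay between, at 47.2, 88.7 and 90.4 CPM. Nid2 (ENSMUSG00000021806, chr14:19751265-19811787, plus strand) differed more, at 35.2, 29.7 and 39.8 CPM against 1.45, 4.92 and 7.75 CPM in venous cells. The venous to capillary log2 ratio of Nid2 was −4.61 in WT, −2.60 in COUPOE replicate 1 and −2.36 in COUPOE replicate 2, and the WT and COUPOE replicate 2 venous values rest on 3 UMIs each. Arterial Nid2 was 18.6, 5.65 and 13.0 CPM.

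Both proteoglycans were present throughout. Hspg2 (ENSMUSG00000028763, chr4:137468769-137570630, plus strand) had 162, 145 and 169 CPM in arterial and 162, 216 and 178 CPM in venous endothelium, all below the capillary values. Its arterial to capillary log2 ratio was −0.88 ± 0.17, with −0.95 in WT and −0.68 in COUPOE replicate 2, short of 2-fold. Agrn (ENSMUSG00000041936, chr4:156165290-156197488, minus strand) did not separate these 3 classes, with 55.7, 71.6 and 104 CPM in arterial, 46.9, 72.2 and 44.3 CPM in capillary and 30.8, 54.9 and 23.3 CPM in venous cells.

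Counted by the rule, 4 of 9 members tested differed between arterial and capillary endothelium (Lamb2 higher, Lama4, Lamb1 and Nid1 lower), where 3.18% of 7224 genes did. The median log2 ratio was −0.88 over the members and −0.06 over all genes tested. Between venous and capillary endothelium 2 of 9 differed (Lama4 and Nid2, both lower), against 4.25% of 8585 genes, with medians of −0.66 and −0.09. Without venous cluster 5 the same 2 met the rule, against 4.57% of 7455 genes, with Lama4 at −2.29 ± 0.18 and Nid2 at −4.24 ± 0.60. Leaving out a cluster cannot raise the few venous Nid2 UMIs given above for WT and COUPOE replicate 2. The SD of this Nid2 ratio does not measure that counting error. The arterial Lamb2 call was lost when cells were clustered more coarsely, at a mean log2 ratio of 1.5.

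Between high and venous endothelium 1 of 8 members tested differed, against 7.70% of 8478 genes. Agrn had 11.7 CPM in WT high endothelium against 30.8 CPM in WT venous cells, and 23.7 against 54.9 CPM in COUPOE replicate 1, a log2 ratio of −1.31 ± 0.13 (SD, n = 2). The median over all genes tested in this comparison was −0.29, and over the members −0.35, so the whole distribution was shifted low. For Lamb1 the 2 libraries, which differ in genotype, lay far apart: its log2 ratio was −1.96 in WT and −0.03 in COUPOE replicate 1. Venous and high endothelium were not fully separated in WT, where the venous cells carried 4730 CPM of the 4 high endothelial markers, against 148 CPM in COUPOE replicate 1. Without venous cluster 5, which held most of that signal (13710 CPM in WT, against 249 and 169 CPM in the other two), Agrn again was the member that met the rule, at −1.45 ± 0.04, against 11.9% of 6983 genes.

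Of the other lists, the collagens met the rule most often. Between arterial and capillary endothelium 4 of 4 collagens tested did, against 1 of 7 laminin receptors, 2 of 4 associated proteins, 1 of 6 heparan sulfate enzymes and 3.18% of all genes. Between venous and capillary endothelium it was 2 of 4, 1 of 7, 1 of 4 and 1 of 7, against 4.25%. Col4a1, Col4a2 and Col15a1 were lower and Col18a1, the source of endostatin, higher in arterial than in capillary cells. Their mean log2 ratios were −1.55 ± 0.45, −1.75 ± 0.42, −2.08 ± 0.26 and 2.56 ± 0.63. Col4a1 and Col4a2, the chains of the ubiquitous collagen IV, were also lower in venous than in capillary cells, at −1.70 ± 0.48 and −2.02 ± 0.53, and so was Col15a1 once cluster 5 was left out, at −1.31 ± 0.25. Of the laminin receptors, 7 of 8 were tested in each comparison. Itgb4, which pairs with Itga6 to hold laminin, was higher than in capillaries in both arterial (1.54 ± 0.37) and venous (1.31 ± 0.25) endothelium, and no other receptor differed by the rule. In high against venous endothelium, where 7.70% of genes differed, 2 of 7 receptors did, Itga6 at −1.05 ± 0.04 and the dystroglycan gene Dag1 at −1.02 ± 0.03, both lower. Without cluster 5 the Itga6 call was lost (−1.04 ± 0.21) and Col18a1 was called higher in high endothelium, at 2.84 ± 0.03.

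Of the associated proteins, 4 of 7 were tested in each of these comparisons. The peroxidase Pxdn, which crosslinks collagen IV, and the perlecan-binding Vwa1 were lower in arterial than in capillary endothelium, at −1.63 ± 0.30 and −1.57 ± 0.23, and Sparc was lower in venous than in capillary endothelium, at −1.52 ± 0.23. Tinagl1 was lower in high than in venous endothelium, at −1.61 ± 0.37. Of the heparan sulfate enzymes, 6 of 9 were tested between arterial and capillary endothelium and 7 in the comparisons of venous cells. Sulf1, which removes sulfate from the chains that perlecan and agrin carry, was higher than in capillaries in arterial (2.36 ± 0.82) and venous (2.67 ± 0.36) endothelium, and Hs6st1 was lower in high than in venous endothelium, at −1.17 ± 0.17. Without cluster 5, Hs2st1 and Sulf1 were lower there too, at −1.27 ± 0.32 and −1.31 ± 0.18. Of the other laminin chains only Lama3 had enough UMIs, in the comparisons with capillaries, and it did not differ by the rule. The agrin receptors Lrp4 and Musk did not have enough UMIs in any of these comparisons.

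**Figure D3:**
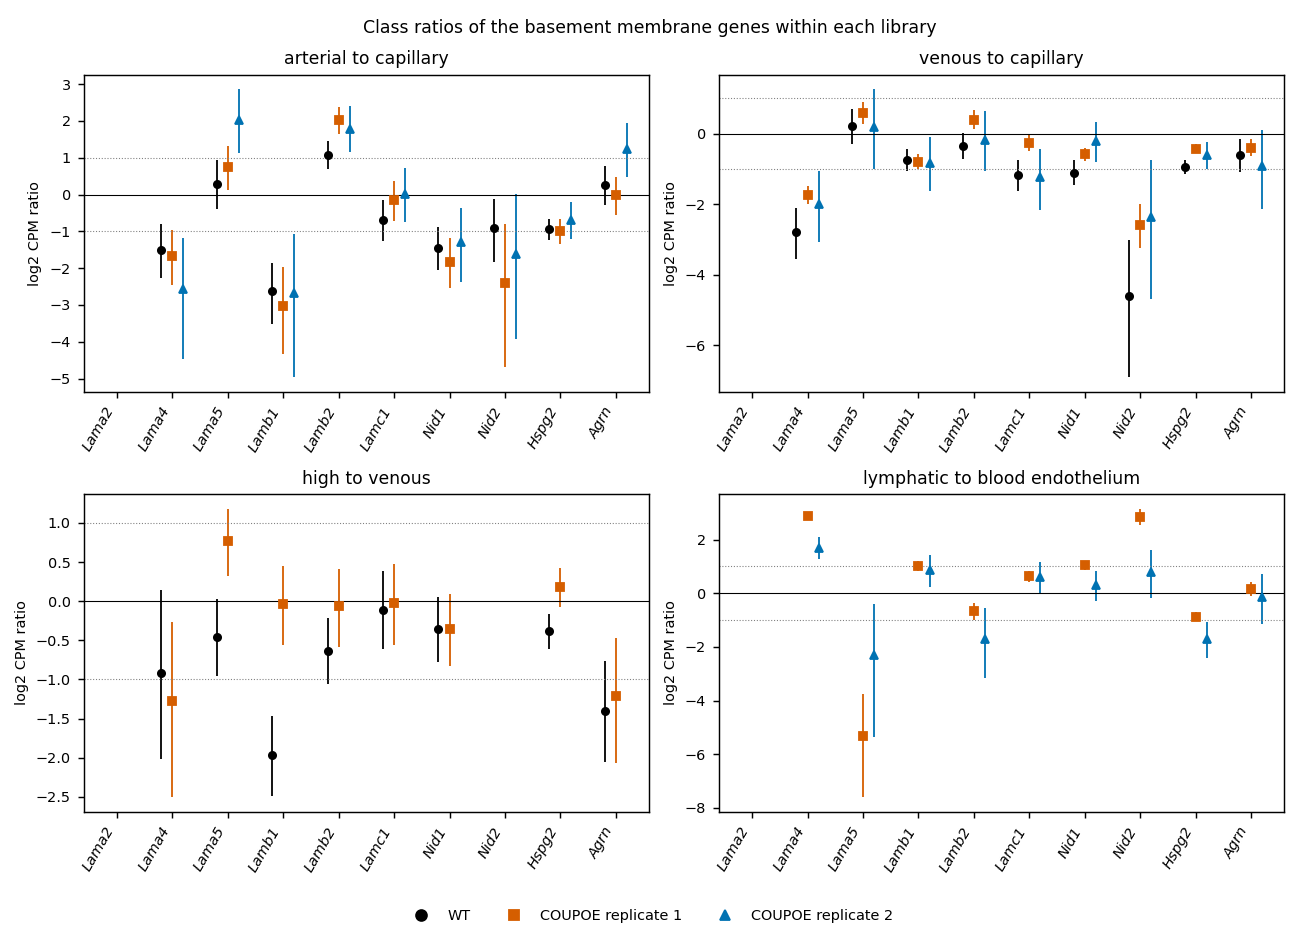
Log2 CPM ratio of each member between classes, 1 panel per comparison; each point is a library, bars are exact 95% counting intervals, dotted lines mark a 2-fold difference, and members under the UMI minimum are left out. Lamb2 and Lamb1 lie on opposite sides in arterial against capillary endothelium, and Lama5 and Lama4 on opposite sides in lymphatic against blood endothelium.

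Lymphatic endothelium, whose initial vessels have a thin and discontinuous membrane, was not poor in these transcripts in the COUPOE libraries. WT held no lymphatic cells, so their levels without Nr2f2 overexpression were not measured, and cell type and overexpression cannot be told apart. All members together came to 1137 CPM in COUPOE replicate 1 and 738 CPM in COUPOE replicate 2. Lama4 had 362 and 225 CPM there, against 49.5 and 69.7 CPM in the blood endothelium of the same libraries, and log2 ratios of 2.87 and 1.69. Lama5 was close to absent, at 1.28 CPM (3 UMIs) and 6.83 CPM (2 UMIs), against 51.3 and 33.4 CPM. Lama4 was therefore 99.6% of the lymphatic alpha chain UMIs in COUPOE replicate 1, with an interval from 99.0% to 99.9%, and 97.1% in COUPOE replicate 2. The remaining alpha chain UMIs were all of Lama5.

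By the rule, 2 of 9 members tested differed between lymphatic and blood endothelium (Lama4 higher, Lama5 lower), against 12.4% of 10301 genes, with a median log2 ratio of 0.62 over the members and 0.08 over all genes. Nid2 differed between the libraries, at 95.5 and 47.8 CPM in lymphatic cells against 13.2 and 27.7 CPM in blood endothelium, so that its log2 ratio was 2.85 in one and 0.79 in the other. Lamb1 was just under 2-fold in COUPOE replicate 2, with log2 ratios of 1 and 0.85, and Nid1 had 1.04 and 0.29. Hspg2 went the other way, at 125 and 68.3 CPM against 228 and 223 CPM, and Lamb2 had 43.7 and 20.5 CPM against 69.7 and 66.1 CPM. Lamc1 and Agrn lay within 2-fold in both libraries. The blood endothelium sum mixed its classes in different proportions in the 2 libraries, since capillary cells were 1292 of 3516 blood endothelial cells in COUPOE replicate 1 and 600 of 998 in COUPOE replicate 2.

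Laminin receptors were low in the lymphatic cells of the COUPOE libraries. Of the 7 tested, 5 were lower than in blood endothelium: Itga3, Itga6, Itgb4, Bcam and Mcam, with mean log2 ratios of −2.58 ± 0.16, −1.32 ± 0.20, −2.60 ± 0.99, −3.63 ± 0.07 and −3.45 ± 0.49. Bcam, the receptor of the alpha 5 chain, had 10.3 and 13.7 CPM against 124 and 175 CPM. Of 4 collagens tested, Col15a1 was lower (−4.67 ± 0.46) and Col18a1 higher (1.65 ± 0.22), and of 5 associated proteins Sparc (−4.39 ± 0.76), Vwa1 (−3.53 ± 0.04) and Tinagl1 (−1.87 ± 0.02) were lower. Of 8 heparan sulfate enzymes, Sulf2 was higher and Ndst1 and Sulf1 were lower, the last 2 with no UMI in the lymphatic cells of COUPOE replicate 2. Sulf2 had 74.5 and 41.0 CPM against 4.08 and 1.22 CPM. Of all 10301 genes tested in this comparison, 6.48% were higher and 5.92% lower.

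Pericytes and smooth muscle cells of vessels, the mural cells, share a membrane with endothelium. With finer clustering, the cells named pericytes fell into a cluster of 307 cells led by Ndufa4l2 and Notch3 and a cluster of 136 led by Actg2 and Acta2. These counts include cells later left out for mixed markers. The class values pool both clusters, and whether all these cells share a membrane with endothelium was not tested. The member with the highest level in the pooled class was Lamb2. It stood at 176 CPM in WT and at 210 and 225 CPM in the COUPOE replicates, against 57.2, 69.7 and 66.1 CPM in blood endothelium, a log2 ratio of 1.66 ± 0.10 (SD, n = 3). Pericyte Lamb2 and arterial Lamb2 had overlapping intervals in every library. Lama2 (ENSMUSG00000019899, chr10:26980036-27619758, minus strand) reached 31.4, 22.4 and 21.1 CPM, from 10, 17 and 6 UMIs, too few to be counted by the rule. In blood endothelium it had 0.745, 0 and 0.408 CPM. Its WT log2 ratio was 5.40, with a counting interval from 3.80 to 7.14. In COUPOE replicate 1 pericyte Lama2 was 98.8-fold higher with the endothelial count of 0 set to 3 UMIs over the class. This is a point ratio that carries the counting error of 17 pericyte UMIs. Lama5 was the leading alpha chain of pericytes, with 43.4%, 45.7% and 58.8% of alpha chain UMIs, and Lama2 had 18.9%, 16.2% and 17.6%.

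By the rule, 2 of 9 members tested differed in pericytes (Lamb2 higher, Nid2 lower), where 4.77% of 10373 genes were higher and 3.23% lower, with medians of −0.37 and −0.04. The Nid2 difference rests on 1, 4 and 0 UMIs in pericytes, and its intervals include a ratio of 1 in WT and COUPOE replicate 1. Hspg2 was lower in each library, at 113, 81.7 and 77.5 CPM, but by less than 2-fold in WT. Lamb1 split the libraries, with 53.4 CPM in WT pericytes and 9.22 and 10.6 CPM in the COUPOE replicates, from 17, 7 and 3 UMIs. Nid1, at 59.7, 38.2 and 28.2 CPM, Lamc1, at 75.4, 64.6 and 52.8 CPM, and Lama4, at 50.3, 35.6 and 28.2 CPM, were not different by the rule. Pericyte Agrn was 25.1, 64.6 and 24.7 CPM. The pericytes carried RNA of other classes: all 7 blood endothelial markers were detected in each library, summing to 2693, 3418 and 620 CPM against 6583 to 9168 CPM in blood endothelium, and the fibroblast markers (7, 6 and 6 of 8 detected) summed to 1618, 460 and 444 CPM against 35487 CPM in WT fibroblasts. The part of this RNA in the pericyte levels was not tested.

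Lamc3, another gamma chain, had 6, 15 and 3 UMIs in pericytes, against at most 1 UMI in any endothelial class and 4 UMIs in fibroblasts. Among the laminin receptors, all 8 were tested and Itga7, which pairs with Itgb1 to bind muscle laminins, was higher, at 138, 65.9 and 130 CPM against 0.373, 0 and 0 CPM. Of 4 collagens Col18a1 was higher (1.6 ± 0.32) and Col15a1 lower, and of 6 associated proteins the laminin-related Ntn4 was higher (4.58 ± 0.97) and Vwa1 lower (−3.13 ± 0.98). None of the 8 heparan sulfate enzymes tested differed by the rule. Of all 10373 genes tested in this comparison, 4.77% were higher and 3.23% lower.

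Fibroblasts and glia were present in the WT library only, so the comparisons with WT blood endothelium rest on a single library and have no replicate. Fibroblasts carried Lama2 at 176 CPM, with an interval from 165 to 187, against 0.745 CPM in blood endothelium, a log2 ratio of 7.88. Lama2 was 65.3% of their alpha chain UMIs, Lama4 31.5%, and Lama5 1.45%. Lamb1 was at 187 CPM and made up 85.5% of the beta chain UMIs. Lama4 had 84.8 CPM, Lamc1 130 CPM, Nid1 135 CPM and Nid2 28.3 CPM, all at least 2-fold above blood endothelium, while Lama5 (3.89 CPM) and Agrn (10.5 CPM) were at least 2-fold below it. Hspg2, at 112 CPM, and Lamb2, at 30 CPM, were lower by less than 2-fold. In all, 8 of 10 members differed by 2-fold, against 31.2% of 9939 genes, with a median log2 ratio of 1.2 over the members and −0.08 over all genes.

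The fibroblasts were not uniform. In the largest of 3 clusters (1106 cells, led by Adamdec1), Lama2 had 246 CPM and Lamb1 263 CPM. In a cluster of 564 cells led by Pi16 and Col14a1, Lama2 had 156 CPM and Lamb1 141 CPM. In 246 cells that carried Ccl19, a chemokine of lymphoid stroma, the same genes had 13.0 and 54.9 CPM and Hspg2 31.9 CPM, against 130 CPM in each of the other two. The lymphoid-type stroma was thus the lowest of the 3 in these genes.

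Of the 7 laminin receptors tested in fibroblasts, Itga3, Itga6, Itgb4, Bcam and Mcam were lower than in blood endothelium, by log2 ratios of −3.19, −4.53, −4.69, −5.08 and −5.43, while Dag1, the receptor of the alpha 2 chain, was higher at 1.19. Of the other lists, Col18a1 (1 of 4 collagens), the agrin co-receptor Musk (14.4 CPM against 0 CPM), Sparc and Smoc2 (2 of 6 associated proteins), and Ext1, Sulf2 and Hpse (3 of 9 heparan sulfate enzymes) were higher. Lama3, with 1 UMI, and the associated proteins Tinagl1, Vwa1 and Npnt were lower. Of all 9939 genes tested in this comparison, 16.1% were higher and 15.0% lower.

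Glia, the enteric nerve support cells, had their own combination. Nid1 stood at 225 CPM and Agrn at 149 CPM, each the highest value of that gene in any named class of WT. Lama4 was at 107 CPM and made up 59.6% of 52 alpha chain UMIs, with Lama2 at 28.8%. Nid2 had 58.8 CPM, Hspg2 173 CPM, Lamc1 69.2 CPM, and Lamb1 and Lamb2 41.5 CPM each. Against blood endothelium the log2 ratios were 2.11 for Lama4, 1.95 for Nid1, 2.23 for Nid2 and 2.27 for Agrn, and −1.14 for Lama5, which rests on 4 UMIs with an interval that includes a ratio of 1. By the rule 5 of 9 members differed, against 34.2% of 9081 genes, with medians of 0.70 and 0.12. Lama2, with 15 UMIs, fell under the minimum, and its log2 ratio was 6.12 with an interval from 4.67 to 7.78. The glia carried 7 of 8 fibroblast markers at a sum of 778 CPM, and the part of that RNA in glial Lama2 was not tested. Of the 7 receptors, Dag1 was higher (2.35) and Bcam lower (−3.08), and of the 4 collagens Col18a1 was higher (3.44) and Col4a2 (−1.45) and Col15a1 (−2.10) lower. Of 5 associated proteins Sparc and Vwa1 were higher and Tinagl1 lower, and of 7 heparan sulfate enzymes Ext1 and Hs2st1 were higher and Ndst2 and Sulf1 lower.

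The orders of the classes followed from these levels. Dividing cells, unnamed clusters and lymphocytes were left out of the orders. Dividing blood endothelial cells had 206 to 244 CPM of Hspg2, 4.47 to 106 CPM of Lama4 and 13.4 to 74.2 CPM of Nid2 over the libraries. Ranks given here therefore hold only among the classes that were ordered. In WT, Lamb2 ran from pericytes and arterial cells, whose intervals overlapped, down to fibroblasts. Hspg2 led in capillaries with an interval apart from the next class, glia. Lama4 ran from glia to high endothelium, with every neighbouring pair overlapping. In COUPOE replicate 1, the deepest library with lymphatic cells, lymphatic endothelium was first for Lama4, Lamb1, Lamc1, Nid1 and Nid2, with intervals apart from the class that came next, capillaries, for all 5 genes. In COUPOE replicate 2 it was first for the same 5 genes, and only Lama4 had its interval apart from the next class.

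Over 21 class and library sums, the genes whose pattern was most like a member's were found by Pearson r of log2(CPM + 10) among 6649 genes. These r are descriptions, since the sums share libraries and differ in depth. Lama2 was nearest to the fibroblast matrix genes Adamts2 (0.99), Col6a3 (0.99) and Col6a1 (0.98). Lama4 was nearest to Jup (0.91), Piezo2 (0.88) and Sash1 (0.87), and Nid2, nearest to Sipa1 (0.86) and Jup (0.85), had Lama4 itself as its next gene (0.83). Lama5 was nearest to Bcam (0.89), then Sncg (0.83) and Nrarp (0.78). Lamb2 was nearest to the Notch ligand gene Jag1 (0.93), Abr (0.89) and Ccrl2 (0.86). Hspg2 was nearest to Vwa1 (0.86), Col15a1 (0.85) and Ctnnbip1 (0.85). Lamb1 was nearest to Man2a1 (0.80), Eva1b (0.79) and Nid1 (0.78), Nid1 to Cyp2d22 (0.84), Piezo2 (0.81) and Fmnl2 (0.80), Agrn to Ndfip2 (0.89), Mff (0.87) and Pon2 (0.85), and Lamc1, the flattest, to Lgals3bp (0.73), Rere (0.72) and Fdx1 (0.71).

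The comparison of COUPOE with WT asked whether the membrane genes that distinguish capillaries and venules move when COUP-TFII is raised throughout the endothelium. Nr2f2 was higher in both COUPOE libraries in every class compared, at 1904 and 1142 CPM against 13.6 CPM in capillaries, 1269 and 840 against 8.66 CPM in arterial cells, and 1786 and 1483 against 244 CPM in venous cells. Most members stayed within 2-fold. In capillaries 0 of 9 members tested met the rule, against 6.28% of 7195 genes, with medians of −0.03 and −0.05. In arterial endothelium 2 members had enough UMIs and 0 met it, against 5.04% of 2838 genes. In venous endothelium 1 of 8 did, against 5.18% of 8425 genes, with medians of 0.24 and 0.00.

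Capillary Lama4 was higher by a log2 ratio of 0.61 in COUPOE replicate 1 and 0.63 in replicate 2, with counting intervals from 0.33 to 0.90 and from 0.28 to 0.97, all above 0 and all below 2-fold. Lamb2 was lower by the same rule of intervals, at −0.44 and −0.48. The mix of clusters in the capillary class differed by genotype, and its part in this Lamb2 difference was not tested. The other 7 members tested did not have both intervals on one side of 0. The capillary and venous endothelium differed between genotypes in the RNA of other cells too. The red cell markers (5, 4 and 4 of 5 detected) summed to 3154 CPM in WT capillaries and to 239 and 30.8 CPM in COUPOE, and the fibroblast markers (8, 1 and 4 of 8) to 119, 1.15 and 6.75 CPM. Blood endothelial markers were at 9026, 10305 and 9150 CPM. Their part in the member differences was not tested.

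Clusters made up the class differently by genotype, so Lama4 was also compared within them. In the capillary cluster of 137, 221 and 77 cells led by Gpihbp1 and Apln, Lama4 had 66.0 CPM in WT against 195 and 181 CPM, a log2 ratio of 1.51 ± 0.08 (SD, n = 2). The progenitor markers Apln and Pgf were among the leading genes of that cluster, beside the capillary marker Gpihbp1. Its Lama4 difference is therefore not one of capillary cells proper alone. The background of 2-fold differences in that cluster was 8.91%. In the cluster with Car4 (495, 189 and 72 cells), Lama4 had 90.2 CPM against 123 and 126 CPM, and in the cluster led by Scgb3a1 and Prom1 (406, 172 and 144 cells) 42.9 CPM against 63.5 and 75.7 CPM. These 3 clusters ran in the same direction, but among them the interval of the ratio excluded 1 in both COUPOE libraries only in the Gpihbp1 and Apln cluster. Lymphatic markers summed to 44.0 CPM in WT and to 176 and 109 CPM in COUPOE in that cluster, and pericyte markers to 36.7, 256 and 119 CPM, and their part in its Lama4 was not tested. In the other two capillary clusters Lama4 was not higher in COUPOE beyond counting error. In the cluster led by Rgcc and Tgtp2 (14, 668 and 302 cells) Lama4 had 84.7 CPM in WT, from only 2 UMIs, against 70.9 and 84.9 CPM. In the cluster led by Aqp1 and Gpihbp1 (99 WT and 42 COUPOE replicate 1 cells) it had 72.8 CPM against 56.2 CPM, with overlapping intervals. Of 11 blood endothelial clusters present in every library, Lama4 had enough UMIs in 6, was higher in COUPOE in 2 and lower in 1. It was lower in the unnamed cluster led by Cyp1a1 and Enpp6 (46, 573 and 157 cells), at 26.3 and 22.7 CPM against 54.5 CPM, where the WT value rests on 4 UMIs and both intervals include a ratio of 1. Nid1 was higher in that cluster, at 81.6 and 78.1 CPM against 27.3 CPM, from 2 UMIs in WT, so 2 of 8 members tested met the rule there in opposite directions, against 16.2% of 5153 genes.

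**Figure D4:**
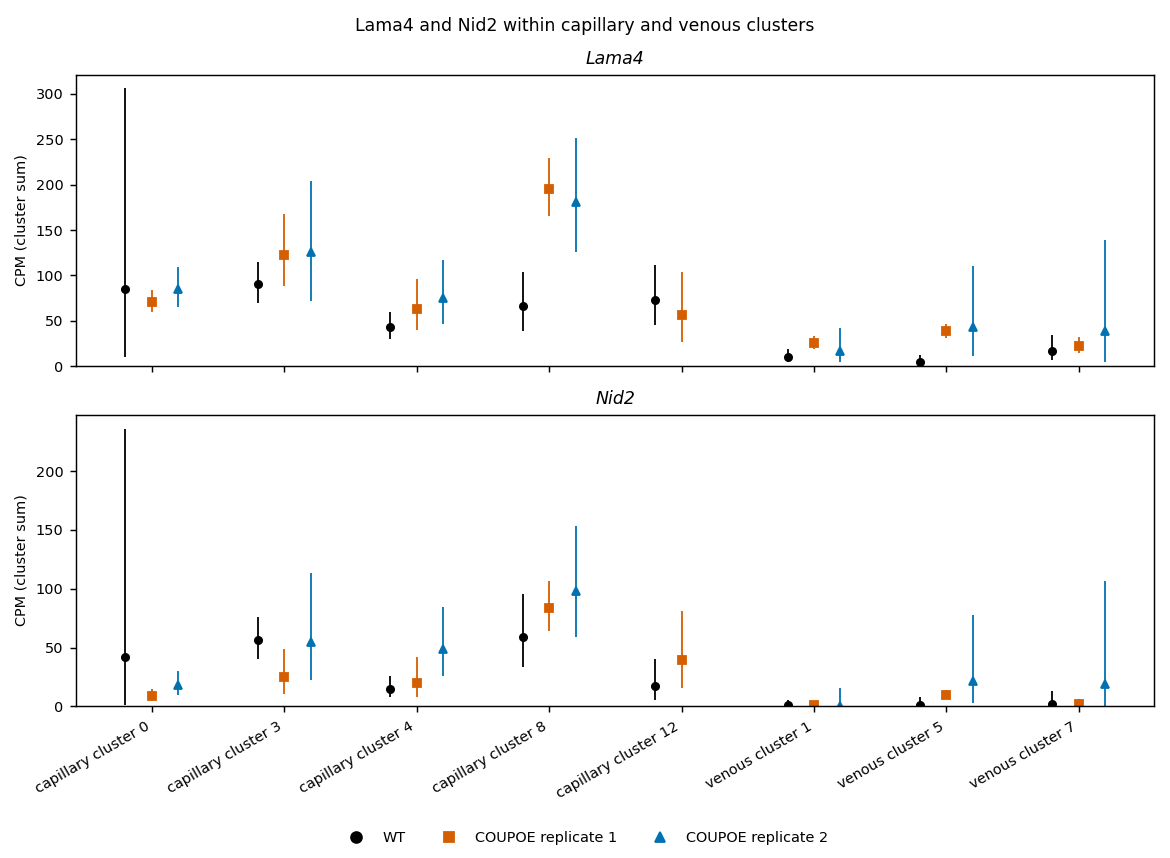
Lama4 (upper panel) and Nid2 (lower panel) level in CPM in each capillary and venous cluster by library, with exact 95% Poisson intervals. In capillary cluster 8, led by Gpihbp1 and the progenitor marker Apln, Lama4 is 66.0 CPM in WT and 195 and 181 CPM in COUPOE.

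Venous Lama4 was the member that met the rule, at 30.5 and 25.8 CPM against 9.63 CPM, with log2 ratios of 1.66 and 1.42 and intervals from 0.99 to 2.41 and from 0.16 to 2.59. The COUPOE replicate 2 value rests on 10 UMIs. The call rested on cluster 5. Without that cluster 0 of 8 members met the rule, against 4.80% of 6712 genes, and Lama4 was 24.0 and 20.4 CPM against 12.3 CPM, with log2 ratios of 0.97 and 0.73. Within cluster 5 Lama4 met the rule at 38.3 and 43.1 CPM against 4.33 CPM, from 103, 4 and 3 UMIs, with a background of 8.78%. Lymphatic markers in that cluster summed to 13.0 CPM in WT and to 240 and 172 CPM in COUPOE, and high endothelial markers to 13710, 316 and 64.6 CPM. In the other two venous clusters Lama4 was 25.2 and 16.5 CPM against 10.3 CPM, and 21.9 and 38.4 CPM against 16.9 CPM, and did not meet the rule. The class call was also lost when cells were clustered more coarsely or more finely or doublets were kept, with mean log2 ratios of 0.57, 0.89 and 0.69. Without COUPOE replicate 1 the gene had fewer than 50 UMIs and was not counted.

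Venous Nid1 came next to Lama4, at 88.7 and 90.4 CPM against 47.2 CPM, with log2 ratios of 0.91 and 0.94 and intervals above 0 in both libraries, and without cluster 5 its ratios were 1.00 and 0.92. In 1 venous cluster it met the rule at 1.14 and 1.32, where 4.84% of genes did. Lamc1 and Agrn differed between the COUPOE libraries, at 0.91 and 0.23 for Lamc1 and at 0.83 and −0.41 for Agrn. Venous Nid2 was 4.92 and 7.75 CPM against 1.45 CPM, too few UMIs to be counted, and 1.25 and 3.40 CPM against 1.45 CPM without cluster 5. Lymphatic markers in venous cells (3, 6 and 5 of 6 detected) summed to 15.4 CPM in WT and to 150 and 101 CPM in COUPOE, against 10495 and 7892 CPM in lymphatic cells. High endothelial markers (3, 4 and 1 of 4) summed to 4730, 148 and 15.5 CPM, and red cell markers (5, 4 and 3 of 5) to 1285, 3.56 and 15.5 CPM. The part of these in the venous differences was not tested.

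**Figure D5:**
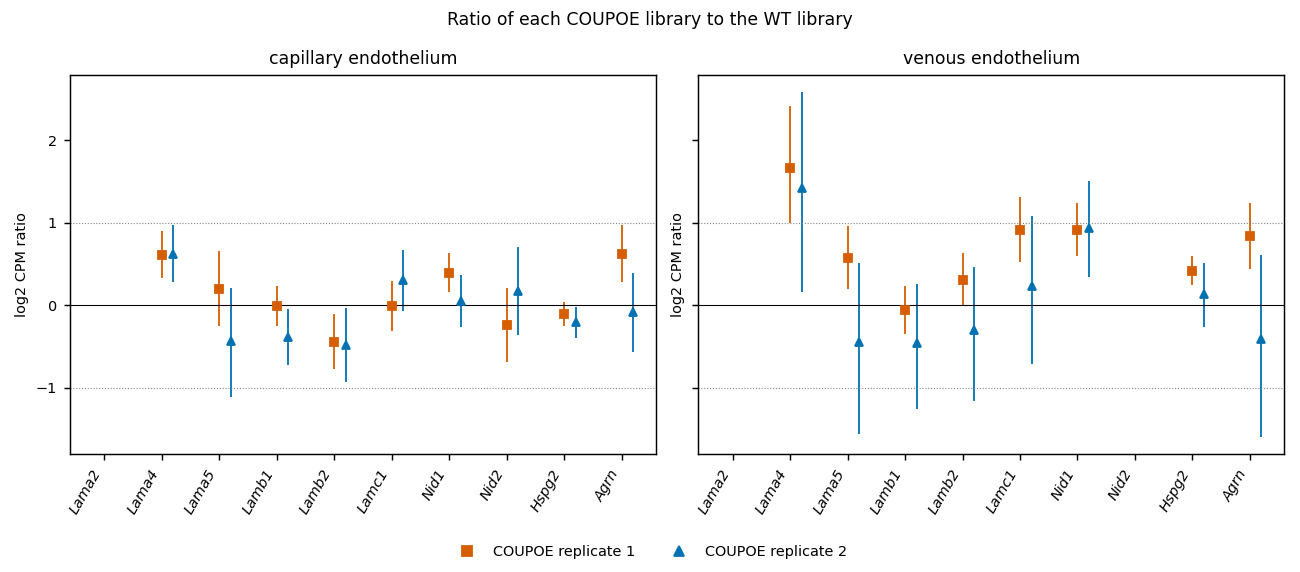
Log2 CPM ratio of each COUPOE library to the WT library for each member, with capillary endothelium on the left and venous endothelium on the right; bars are exact 95% counting intervals, dotted lines mark 2-fold, and members under the UMI minimum are left out. Venous Lama4 lies beyond 2-fold in both libraries (1.66 and 1.42), and capillary Lama4 lies at 0.61 and 0.63.

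In arterial endothelium, Lamb2 had log2 ratios of 0.50 and 0.24 and Hspg2 of −0.16 and 0.06. Lama5 (0.65 and 1.29) and Lamc1 (0.52 and 1) were above 0 in both libraries but had too few UMIs to be counted. In pericytes 0 of the 2 members tested met the rule, against 4.14% of 2462 genes. Lamb2 had 0.25 and 0.36, and Hspg2 −0.47 and −0.55. Pericyte Lamb1 was lower at −2.53 and −2.34 with intervals below 0 in both libraries, from the 17, 7 and 3 UMIs given above, below the minimum. Pericyte Nr2f2 was itself higher, at 1111 and 641 CPM against 292 CPM, in cells whose blood endothelial markers were given above. High endothelium had 80 cells in COUPOE replicate 1 and 3 in COUPOE replicate 2, so its values stand side by side without a second library: Hspg2 had 124 CPM in WT and 245 CPM in COUPOE replicate 1, Nid1 36.9 and 69.5 CPM, and Lamc1 28.5 and 56.9 CPM. The 4 high endothelial markers themselves summed to 84218 and 17875 CPM there.

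Of the other lists, capillaries had 2 calls, against the 6.28% of genes given above: 1 of 7 laminin receptors was higher (Itga3, 22.5 and 12.8 CPM against 3.75 CPM, from 8 UMIs in WT) and 1 of 6 heparan sulfate enzymes lower (Sulf1, −1.35 ± 0.41), and 0 of 4 collagens differed. Col4a1 was at 726 and 711 CPM against 675 CPM. In arterial cells (5.04%) 1 of 3 associated proteins, Tinagl1, was higher (1.41 ± 0.08), in venous cells (5.18%) 1 of 4, Pxdn (1.23 ± 0.12), and in pericytes (4.14%) 1 of 4, Ntn4 (2.32 ± 0.50, from 4 UMIs in WT). Pxdn also met the rule in venous cells without cluster 5.

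Single clusters gave more calls than the whole classes. Tinagl1 was higher in COUPOE in 6 of the 11 clusters and lower in 0. All clusters come from the same libraries, with a single WT library, so these calls are not independent. Among the whole classes, Tinagl1 met the rule only in arterial endothelium. The 6 clusters were arterial cluster 10 (1.49 ± 0.14), capillary cluster 0, where WT had only 14 cells (1.66 ± 0.08), capillary cluster 8 (1.16 ± 0.19), the dividing cluster (1.95 ± 0.24), the Cyp1a1 and Enpp6 cluster (1.75 ± 0.12) and venous cluster 5 (1.59 ± 0.02). The backgrounds in those clusters were 6.85%, 32.8%, 8.91%, 11.0%, 16.2% and 8.78%. Venous cluster 5 held the most: 3 of 7 laminin receptors (Itga3, Itga6 and Mcam, at 1.43 ± 0.07, 1.5 ± 0.36 and 1.26 ± 0.24), 3 of 4 associated proteins (Sparc, Pxdn and Tinagl1) and 1 of 4 collagens (Col4a1, 1.51 ± 0.25) were higher, and 1 of 4 heparan sulfate enzymes (Sulf1) was lower. Its high endothelial and lymphatic marker sums, given above, differed strongly by genotype. Cell make-up and genotype therefore cannot be told apart in these calls. Bcam, the receptor of the alpha 5 chain, was lower in capillary clusters 0 and 8. In the dividing cluster 1 of 5 members met the rule, Agrn, at 64.2 and 53.0 CPM against 17.9 CPM, from 4 UMIs in WT.

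Lymphatic endothelium and fibroblasts could not be compared by genotype, since WT held no lymphatic cells and the COUPOE libraries held 6 and 4 fibroblasts.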

How the data were processed

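Single-cell 3′ libraries of 1 WT and 2 COUPOE samples were analysed. The authors deposited UMI counts per gene and barcode from Cell Ranger with build mm10. The submitters' processing notes name version 3.0.2, while the file header of COUPOE replicate 1 names 3.1.0. The labels name a v3 platform and a v2 kit. Rows for TdTomato and CreERT2, in the WT and COUPOE replicate 2 files only, held 0 UMIs and were left out.

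Filters of 500 genes and 1000 UMIs as minimums, and of 10% mitochondrial UMIs as the maximum, left 5473, 4750 and 1243 barcodes, and 132, 46 and 4 doublets called by Scrublet (Scanpy 1.11.5) were removed. Cells were integrated by reciprocal PCA in Seurat 5.3.0 under R 4.3.3 (2000 variable genes, 30 components, resolution 1). Blood endothelial cells were clustered again. Classes were named from marker lists, with a margin of 1.2 over the next class, a rule set after the clusters were seen and before any member's value was read. Clusters that met no rule stayed unnamed, and cells with as many UMIs of another class's markers as of their own were left out, among them 472 of 473 epithelial cells of WT.

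Counts were summed by class and library in Python 3.11.15 with NumPy 2.4.6 and SciPy 1.17.1, and plotted with matplotlib 3.10.9. A count of 0 was set to 3 UMIs for a ratio, and no ratio was called where both counts were at most 3. Genes named beside the members are up to 4 per list, those called with the largest smaller ratio over libraries, and the 3 genes most like each member, among genes reaching 50 CPM in a sum. The members and lists were chosen with earlier results of these data known, and the scripts were tested on simulated counts. Depth was 17341398, 17417260 and 3548983 UMIs, and median UMIs per barcode were 2368.5, 2884 and 2180. Alternatives were another resolution, no integration, doublets or mixed cells kept, other UMI minimums, edgeR 4.0.16 TMM scaling, leaving out each library and, added after seeing the data, leaving out venous cluster 5. Gene positions are those of GRCm38.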

Additional observations from a re-analysis of the deposited data

How the results depend on the processing

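Of 119 results under an alternative, 101 stayed and 18 moved. Of these, 118 were counts of members called, which stayed when within 1.5 times the main count. The other was the share of capillary cells with a member UMI, which moved without thinning by more than its spread between libraries. Of 909 values of single members, 823 moved by no more than the spread between libraries and 86 moved further, and 0 members called in both settings changed direction. For fibroblasts and glia, present in a single library, the counting interval took the place of that spread. The count for pericytes against blood endothelium fell from 2 to 1 when cells with mixed markers were kept, since Nid2 was lost. For high against venous endothelium the count of 1 became 2 at resolution 0.6 (Lama4 and Agrn), 0 without integration (Agrn at −0.97) and 2 with doublets kept. For COUPOE against WT in venous endothelium the count of 1 became 0 at resolution 0.6, 0 at resolution 1.6, 0 with doublets kept, 0 without venous cluster 5 (an alternative chosen after seeing the data) and 2 without integration (Lama4 and Lama5). For COUPOE against WT in pericytes the count of 0 became 1 with at least 10 UMIs and 1 with no minimum, in both cases Lamb1, lower. Leaving out 1 library at a time gave counts of 2 to 5 for pericytes, 2 to 5 for lymphatic endothelium, 1 to 2 for high endothelium and 0 to 1 for venous COUPOE against WT. Because a call needs 2-fold in every library, leaving 1 out can only keep or add calls, unless a gene falls under the UMI minimum. A higher count is therefore no test of the calls. Apart from leaving out venous cluster 5, the share of all genes meeting the rule was not computed under the alternatives. The counts given here have no background beside them and are not results about the members. Without WT the pericyte count was 5 (Lamb2 higher, Lamb1, Nid1, Nid2 and Hspg2 lower), so Lamb1, Nid1 and Hspg2 fell short of 2-fold in WT alone. The lymphatic count was 4 without COUPOE replicate 1 and 5 without COUPOE replicate 2. For capillary endothelium, the mean share of cells with a member UMI was 53.1%, and 74.9% without thinning. Arterial Lamb2 fell below the rule at resolution 0.6, with a mean log2 ratio of 1.5. The causes were not tested. COUPOE against WT in lymphatic endothelium and in fibroblasts gave no value under any setting, and fibroblasts and glia gave none without WT. No paired analysis was possible because the control group is a single library whose label carries no replicate number. The smallest classes limit the depth: COUPOE replicate 2 arterial, venous and pericyte sums held 37, 16 and 64 UMIs of Lamb2.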

Other observations

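A WT cluster of 99 cells that met no naming rule, led by Bmp7, Wif1 and Pdgfra, held the highest member total of any class, at 1789 CPM. Lamb1 stood at 434 CPM there, Lama4 at 309 CPM, Hspg2 at 304 CPM, Lamc1 at 254 CPM, Nid1 at 246 CPM and Lama2 at 179 CPM, while Lamb2 had 12.5 CPM and Lama5 no UMI, which allows up to 12.5 CPM by the limit of 3 counts. The alpha chain UMIs were 62.7% Lama4 and 36.4% Lama2, and Lamb1 was 97.2% of the beta chain UMIs. The cluster was absent from both COUPOE libraries.

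A blood endothelial cluster led by Cyp1a1 and Enpp6 also stayed unnamed (46, 573 and 157 cells). In the COUPOE replicates it was richer in Lamb2, with 112 and 106 CPM, than in Lamb1, with 42.1 and 20.1 CPM. The WT values, 68.1 CPM of Lamb2 and 54.5 CPM of Lamb1, come from a sum of only 73387 UMIs. They rest on too few UMIs to be ordered. Lama3 in this cluster was 123 CPM in WT, from 9 UMIs, and 30.5 and 22.7 CPM in the COUPOE replicates, a difference that met the 2-fold rule. Within lymphatic endothelium of COUPOE replicate 1, 2 clusters differed in Hspg2, at 105 and 225 CPM, more than in Lama4, at 377 and 288 CPM.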
